A study of Mus musculus with 8 samples.

Results

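The melanocortin system of the hypothalamus was followed through 6 genes, *Pomc*, *Agrp*, *Cartpt*, *Mc3r*, *Mc4r*, and *Mrap2*, in 4 neighboring hypothalamic nuclei of the adult mouse. The genes were chosen by name, with earlier results of these data known. Shares of all probes set beside their counts are therefore a description and no test. All 8 probes whose RefSeq accession maps to these genes were read, of 55681 probes and 20284 named genes on the array. *Mrap2* had 3 probes and each other gene had 1. The samples were the arcuate nucleus (Arc), the ventromedial hypothalamus (VMH), the dorsomedial hypothalamus (DMH), and the lateral hypothalamus (LH), cut by laser microdissection from 2 female C57BL/6J mice aged 3 months. Neither the labels nor the methods give a treatment or an engineered allele, so the groups are defined by the place of dissection. RNA of every nucleus was amplified as a whole transcriptome, and 2 arrays were hybridized for each nucleus. The labels call the 2 arrays of a nucleus replicates, and which mouse each array came from is not given.

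In this system, neurons of the Arc make opposing signals for the melanocortin receptors. The proopiomelanocortin precursor, encoded by *Pomc*, is cut into melanocortin peptides that activate the receptors and reduce feeding, and the agouti-related peptide, encoded by *Agrp*, blocks them and promotes feeding. The receptors of the brain are *Mc3r* and *Mc4r*, and *Mrap2* encodes an accessory protein that binds them. *Cartpt* encodes the CART peptide, which many *Pomc* neurons also make and which is also made in other hypothalamic cells, among them many neurons of the LH that make melanin-concentrating hormone.

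Signals are intensities scaled to the 75th percentile of each array, and differences are on the log2 scale with a standard error from limma. A probe's level was compared only with its own level in other nuclei, because the brightness of different probes cannot be compared. A probe was called where its adjusted p, taken over all 28896 probes tested in that comparison, was under 0.05. Between 47.1% and 52.7% of the spots of an array were well above background, and no spot was saturated. A signal that the extraction software did not call well above background is written as below background, and gives only a bound. A p given beside a bound is that of the limma difference on the measured signals, dim ones included, and does not test the bound. The known markers of the Arc, *Npy*, *Kiss1*, *Ghrh*, and *Tbx3*, were each called higher in the Arc in all 3 of its comparisons, and the VMH markers *Nr5a1* and *Fezf1* likewise in the VMH. *Prdm13*, one of 3 markers of the DMH, was 1661 and 1667 there and below background on all other arrays but LH1, at 140, and was called over the Arc (limma adjusted p = 0.034) and VMH (0.0137) but not the LH (0.0521). *Grp* was called over the VMH only, and *Npvf* in no comparison. The DMH samples also carried transcripts of the LH neuropeptides, with *Hcrt* at 48.1% and *Pmch* at 80.5% of the LH mean. *Cga*, a hormone subunit of the anterior pituitary, was well above background on Arc1 alone, at 1425 against 28.6 on Arc2. In samples of whole tissue, fewer cells of a type and less RNA per cell cannot be told apart.

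The members fell into distinct patterns. *Pomc* and *Agrp* were many times higher in the Arc than elsewhere, *Cartpt* was high in the Arc, DMH, and LH and low in the VMH, *Mc3r* was high in both the Arc and the VMH, and *Mc4r* and *Mrap2* differed little or could not be measured well. Of the 8 probes, 7 had their highest mean in the Arc (29.4% of all tested probes), and 5 had their lowest mean in the VMH (25.3%). On the deposited signals without scaling these counts were 3 (6.47%) and 4 (15.5%), with *Mc3r* highest in the VMH and the *Mrap2* probes in the DMH, where 50.4% of all probes were then highest. By the F-test over the 4 nuclei, 4 of the 8 probes were called, those of *Pomc*, *Agrp*, *Cartpt*, and *Mc3r*, where 8.34% of all probes tested were called.

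**Figure D1:**
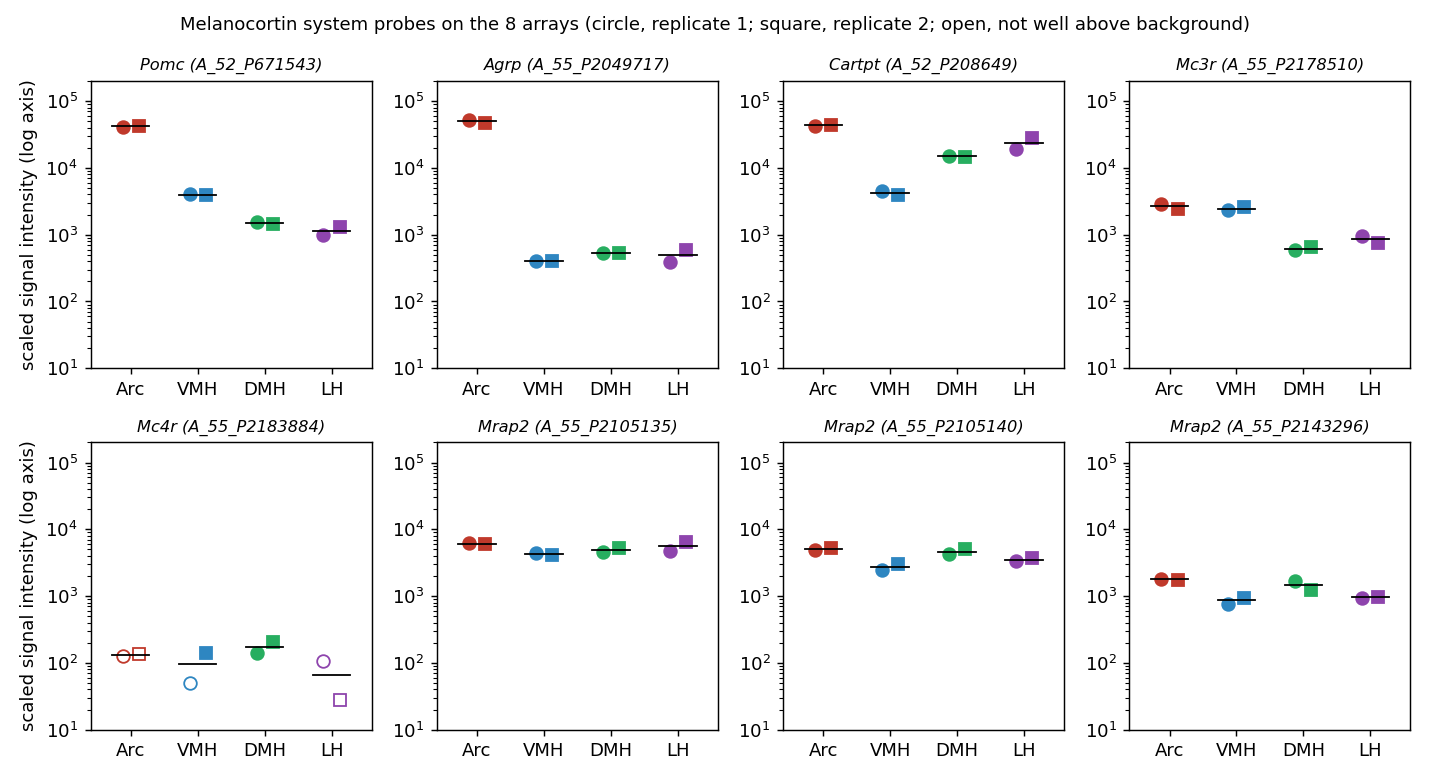
Scaled signal intensity (log axis) of the 8 probes on the 8 arrays. Circles are replicate 1, squares replicate 2, bars the mean of a nucleus, and open symbols signals not well above background. *Pomc* and *Agrp* lie at 40403 or more in the Arc and at 4049 or less elsewhere, *Cartpt* is lowest in the VMH, *Mc3r* has a high pair of nuclei and a low pair, and *Mc4r* is measured on 3 arrays.

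In the plot of signals by array, *Agrp* and *Pomc* separate the Arc from the other nuclei, and the 2 VMH arrays and the 2 LH arrays of *Mc4r* lie furthest apart. The promoters of 3 called members with different patterns are shown here to set their sequences side by side, each from 250 bases before to 50 bases after the transcription start in RefSeq on the build GRCm38.p6. They are *Pomc* at chr12:3954695-3954994 on the plus strand, *Cartpt* at chr13:99900634-99900933 on the minus strand, and *Mc3r* at chr2:172248242-172248541 on the plus strand. Each is written 5′ to 3′, and capitals mark any match to one of the 4 motifs searched on both strands, TATAAA (the TATA box), TGACGTCA (the full cyclic AMP response element), TAATTA (a core bound by many homeodomain proteins), and TTCNNNGAA (bound by STAT factors).
Pomc: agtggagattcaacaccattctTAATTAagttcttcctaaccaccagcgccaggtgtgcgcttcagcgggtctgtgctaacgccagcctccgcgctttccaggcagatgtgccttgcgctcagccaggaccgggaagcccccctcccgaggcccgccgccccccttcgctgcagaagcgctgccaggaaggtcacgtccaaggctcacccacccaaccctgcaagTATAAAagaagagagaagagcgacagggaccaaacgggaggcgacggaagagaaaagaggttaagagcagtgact
Cartpt: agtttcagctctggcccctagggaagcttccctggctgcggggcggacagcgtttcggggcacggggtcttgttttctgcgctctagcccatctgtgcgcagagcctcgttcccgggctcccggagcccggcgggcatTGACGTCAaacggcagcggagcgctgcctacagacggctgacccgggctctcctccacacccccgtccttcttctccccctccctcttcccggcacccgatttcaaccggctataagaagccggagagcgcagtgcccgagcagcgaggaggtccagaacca
Mc3r: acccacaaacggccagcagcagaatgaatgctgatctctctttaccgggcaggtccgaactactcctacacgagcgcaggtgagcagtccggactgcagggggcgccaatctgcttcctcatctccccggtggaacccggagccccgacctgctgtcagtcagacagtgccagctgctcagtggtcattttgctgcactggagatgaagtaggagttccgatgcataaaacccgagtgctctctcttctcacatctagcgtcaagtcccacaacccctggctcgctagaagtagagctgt

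The *Pomc* promoter held the TATA box with its first base at position -25 from the start, and the homeodomain core at -228. The *Cartpt* promoter held the cyclic AMP response element at -112. The *Mc3r* promoter held none of the 4 motifs, and no matches overlapped. Of all 32851 promoters in the same table, 13.6% held TATAAA, 5.29% TAATTA, 1.79% TGACGTCA, and 8.3% TTCNNNGAA, and the motifs were chosen after the sequences had been seen. A match is a description of letters in the window and no evidence of binding. *Agrp* and *Mc4r* have no entry in the table. The window of *Mrap2*, at chr9:87144056-87144355 on the plus strand, held none of the motifs.

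*Agrp* (probe A_55_P2049717) had the steepest gradient of the members. Its signal was 53020 and 47181 on the Arc arrays, 406 and 398 on the VMH arrays, 531 and 529 on the DMH arrays, and 397 and 581 on the LH arrays. Both Arc arrays lay far above the other 6, which stayed within a narrow band well above background. The Arc mean of 50101 ± 4129 (SD, n = 2) was 94.5 times the mean of the DMH, the next nucleus. The log2 difference was 6.96 ± 0.24 (SE) against the VMH (limma adjusted p = 0.000167), 6.56 ± 0.24 against the DMH (0.000286), and 6.70 ± 0.24 against the LH (0.000227). By size of rise in the Arc, *Agrp* ranked 2nd of the 28896 probes against the VMH, 3rd against the DMH, and 3rd against the LH. As a share of the Arc mean, the VMH had 0.803%, the DMH 1.06%, and the LH 0.976%. Those 3 nuclei were not told apart, and the difference between VMH and DMH was -0.40 with a 95% interval of -0.96 to 0.16. The summed level of 6 tanycyte and ependymal markers was also higher in the Arc, at 6185 to 7115 against 1522 to 2167 on the other arrays, with *Foxj1* and *Tmem212* below background throughout. Its part in the Arc levels of the members was not tested.

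*Pomc* (probe A_52_P671543) was also highest in the Arc, but with a clear second level in the VMH. Its signal was 40403 and 43108 on the Arc arrays, 4049 and 3865 on the VMH arrays, 1554 and 1447 on the DMH arrays, and 1003 and 1299 on the LH arrays. The order was Arc, VMH, DMH, LH, with no overlap between arrays of neighboring nuclei. The Arc mean was 41756 ± 1913 (SD, n = 2), or 10.6 times the VMH mean of 3957 ± 130. This ratio is just past a 10-fold rule for enrichment that 32 of the tested probes (0.111%) met in the Arc, and *Agrp* met it widely. On the signals as deposited, without scaling between arrays, the *Pomc* ratio was 8.63 and missed the rule. The log2 difference of the Arc was 3.40 ± 0.21 against the VMH (limma adjusted p = 0.000596), 4.80 ± 0.21 against the DMH (0.000286), and 5.19 ± 0.21 against the LH (0.000261).

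The second level of *Pomc* was called as well. The VMH was above the DMH by 1.40 ± 0.21 on the log2 scale (limma adjusted p = 0.0221) and above the LH by 1.79 ± 0.21 (0.00692). DMH and LH were not told apart, at 0.39 with an interval of -0.10 to 0.89 (0.403). In the VMH, *Pomc* kept 9.48% of its Arc mean, while *Agrp* kept 0.803%. Over the 32 probes past the 10-fold rule, which itself caps this share, the VMH share ran from 0.75% to 9.89% with a median of 4.49%, and *Pomc* was 4th from the top and *Agrp* 31st. Of the 4 Arc markers, none was called higher in the VMH than in the DMH or LH. *Npy*, *Kiss1*, and *Tbx3* differed between VMH and DMH by -0.26, 0.00, and 0.31 on the log2 scale, and *Ghrh*, at -3.21, was called lower in the VMH (0.0107). The VMH call over the DMH was lost without Arc1 (0.0662), Arc2 (0.068), VMH1 (0.143), VMH2 (0.118), DMH1 (0.114), or DMH2 (0.144), and the call over the LH was lost without VMH1 (0.0555). Without scaling, the call over the DMH was lost too (0.148).

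**Figure D2:**
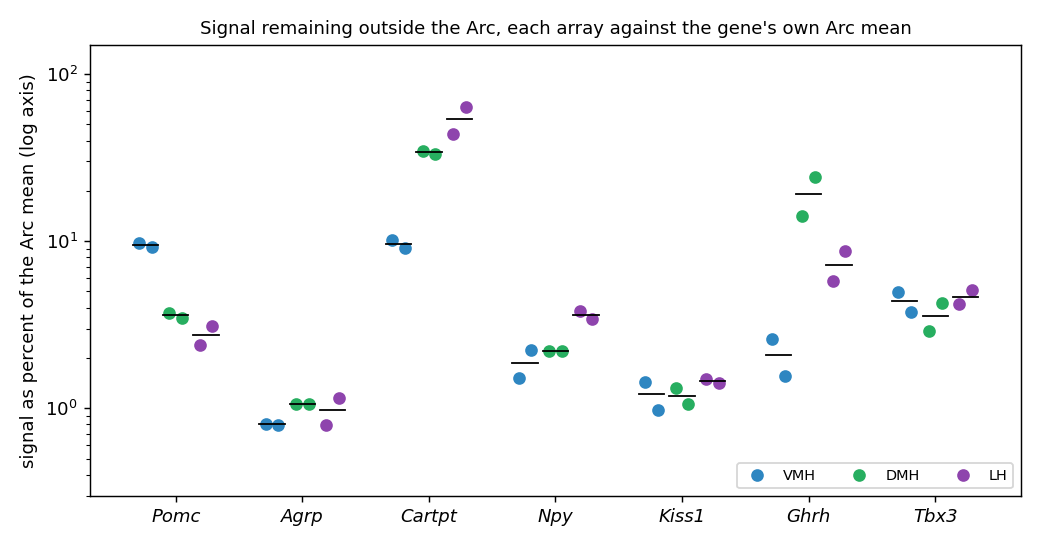
Signal of *Pomc*, *Agrp*, *Cartpt*, and the 4 Arc markers on each array outside the Arc, as percent of the gene's own Arc mean (log axis). Points are arrays and bars the mean of a nucleus. *Pomc* falls from the VMH to the LH, *Agrp* lies near 1% in all 3 nuclei, and *Cartpt* reaches 53.8% in the LH.

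*Pomc* is also the hallmark of corticotrophs and melanotrophs of the pituitary, which lies beneath the Arc, so pituitary transcripts were read beside it. Of the 10 markers of the anterior pituitary, *Gh*, *Prl*, *Tshb*, *Fshb*, *Pou1f1*, and *Pitx1* were below background throughout. The summed level of the 10 markers, signals below background included, was 2019 on Arc1, 553 on Arc2, and 278 to 455 on the other arrays. *Cga* alone made up 1425 of the sum on Arc1. *Pomc* itself was 40403 on Arc1 and 43108 on Arc2. Without Arc1 the *Pomc* difference was 3.45 against the VMH (limma adjusted p = 0.00989), 4.85 against the DMH (0.00951), and 5.24 against the LH (0.00481). *Tbx19*, a transcription factor of corticotrophs, was 198 and 254 on the Arc arrays and 111 and 122 on the DMH arrays, where 1 of the 2 signals was below background. It was below background on the VMH and LH arrays. The part of pituitary RNA in the *Pomc* level of the Arc was not tested.

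*Cartpt* (probe A_52_P208649) followed a different map. Its signal was 43102 and 44665 on the Arc arrays, 4463 and 3989 on the VMH arrays, 15306 and 14570 on the DMH arrays, and 19288 and 27917 on the LH arrays. Both VMH arrays lay far below all others, and the 2 LH arrays stood further apart than those of any other nucleus. The Arc mean was 43884 ± 1105 (SD, n = 2) and the LH mean 23602 ± 6101. The Arc was above the VMH by 3.38 ± 0.23 on the log2 scale (limma adjusted p = 0.000915). The VMH was also below the LH, with a difference of -2.46 ± 0.23 (0.00357), and below the DMH, with -1.82 ± 0.23 (0.0132). Thus *Cartpt* and *Pomc* were called in opposite directions between the VMH and each of DMH and LH. The Arc was above the DMH by 1.55 ± 0.23 (0.0313). The Arc was above the LH by 0.92 ± 0.23, which missed the threshold (0.0555), and DMH and LH differed by -0.64 with an interval of -1.19 to -0.08 (0.27).

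Several of these calls stood near the threshold. With the replicate number as a block, the Arc was no longer called over the DMH (limma adjusted p = 0.0555). The call of the Arc over the DMH was lost without scaling (limma adjusted p = 0.128), without the filter on dim probes (0.0579), and without any array of the Arc (0.175 and 0.178), VMH (0.0857 and 0.0788), or DMH (0.158 and 0.17). The call of the DMH over the VMH was lost without VMH1 (0.0764), VMH2 (0.0948), DMH1 (0.0906), or DMH2 (0.0758). The Arc passed over the LH without LH2, the brighter LH array (1.19 on the log2 scale, 0.0231), and under 5 of the 11 settings that kept all arrays. *Pmch*, the melanin-concentrating hormone precursor, was 17650 and 17005 in the LH, 16253 and 11631 in the DMH, 3938 and 3140 in the VMH, and 97.5 and 71.1 in the Arc, where it was not well above background. In the Arc, *Cartpt* was at its highest where *Pmch* was at background, and in the other 3 nuclei both had their lowest level in the VMH. The part of *Pmch* cells in the *Cartpt* level was not tested.

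*Mc3r* (probe A_55_P2178510), the receptor that is also found on Arc neurons, split the nuclei into pairs. Its signal was 2906 and 2410 on the Arc arrays, 2352 and 2568 on the VMH arrays, 590 and 647 on the DMH arrays, and 968 and 739 on the LH arrays. The Arc and VMH arrays overlapped each other and lay above all DMH and LH arrays. The Arc mean was 2658 ± 350 (SD, n = 2) and the DMH mean 619 ± 40.1. The log2 difference was 2.10 ± 0.22 for Arc over DMH (limma adjusted p = 0.00912), 1.65 ± 0.22 for Arc over LH (0.00701), 1.99 ± 0.22 for VMH over DMH (0.00865), and 1.54 ± 0.22 for VMH over LH (0.0136). Between Arc and VMH the difference was 0.11, with a 95% interval of -0.42 to 0.64 (0.867), so a difference of up to 0.64 in favor of the Arc lies within the error. DMH and LH were not told apart, at -0.45 with an interval of -0.98 to 0.08 (0.381). The *Mc3r* pattern resembled that of *Pomc* in its higher level in the VMH than in the DMH and LH, but with no called step between Arc and VMH. Whether the 2 genes differ in this step was not tested.

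The *Mc3r* calls depended on single arrays. Arc over DMH was lost without Arc1 (limma adjusted p = 0.0771), Arc2 (0.0503), DMH1 (0.0714), or DMH2 (0.052), and Arc over LH without Arc1 (0.0652). VMH over DMH was lost without VMH1 (0.053), VMH2 (0.0713), or DMH1 (0.0661), and VMH over LH without VMH1 (0.0835) or VMH2 (0.082). No such change turned a direction. Without scaling, Arc over DMH (0.069) and VMH over DMH (0.0571) were lost. The summed level of 6 oligodendrocyte markers was 103219 to 106773 in the LH, 27392 to 28236 in the DMH, 31436 to 38776 in the VMH, and 11760 to 19050 in the Arc. Its part in the lower *Mc3r* of the LH was not tested.

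*Mc4r* (probe A_55_P2183884), the receptor whose loss causes obesity, was near the limit of the array. Its signal was 129 and 135 on the Arc arrays, 50.5 and 142 on the VMH arrays, 140 and 205 on the DMH arrays, and 106 and 27.8 on the LH arrays. It was well above background on VMH2, DMH1, and DMH2 only. The bounds for the DMH were 1.29-fold over the Arc, equal to the measured ratio, and 1.43-fold over the LH. They leave out the spread between arrays and do not show the DMH to be higher, with no call in either comparison (limma adjusted p = 0.945 and 0.322). None of the 6 *Mc4r* comparisons was called, and the intervals were wide, from -2.00 to 1.27 on the log2 scale for Arc minus DMH. Differences of up to about that size were not detectable at this brightness.

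*Mrap2*, the accessory protein, was measured on all 8 arrays by each of its 3 probes. The brightest probe (A_55_P2105135) gave 6210 and 6037 in the Arc, 4486 and 4177 in the VMH, 4603 and 5245 in the DMH, and 4774 and 6547 in the LH. The second (A_55_P2105140) gave 4954 and 5304 in the Arc, 2457 and 3044 in the VMH, 4227 and 5081 in the DMH, and 3360 and 3687 in the LH. The third (A_55_P2143296) gave 1824 and 1738 in the Arc, 774 and 952 in the VMH, 1677 and 1228 in the DMH, and 940 and 985 in the LH. With scaling, all 3 probes had their highest mean in the Arc and their lowest in the VMH, and the 3 differed in the size of this gap. Without scaling, all 3 were highest in the DMH and the third was lowest in the LH, and after normexp the first was highest in the LH. The log2 difference of the Arc over the VMH was 0.50 ± 0.22 for the first (limma adjusted p = 0.274), 0.91 ± 0.21 for the second (0.0585), and 1.05 ± 0.23 for the third (0.0463). The third was the only call of *Mrap2*, and it was lost without either array of the Arc (0.244 and 0.185), VMH (0.259 and 0.114), or DMH (0.0677 and 0.0699), without scaling (0.313), and without the filter on dim probes (0.0998). With the replicate number as a block, that call was lost too (limma adjusted p = 0.071). In the LH the first probe was nearly at its Arc level (0.13, 0.748) and the third lower by 0.89 (0.0592). Neither difference was called, and whether the probes differ in it was not tested.

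**Figure D3:**
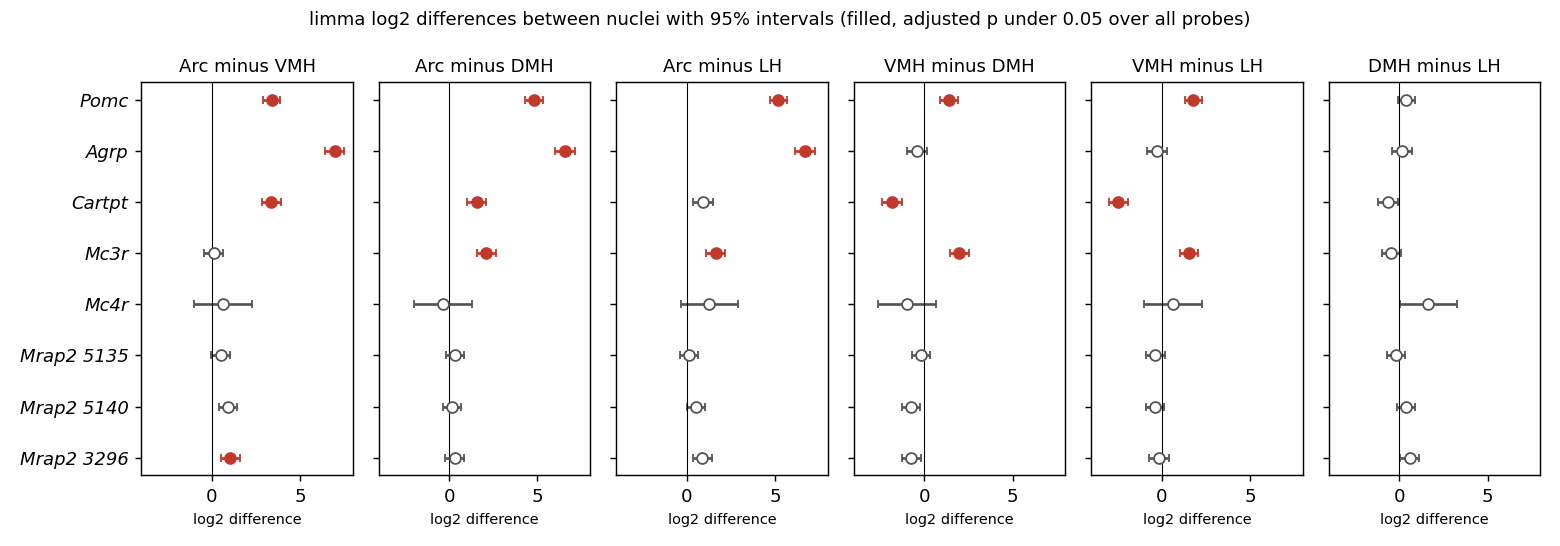
Log2 differences between each pair of nuclei for the 8 probes, with 95% intervals from limma. Filled red points have an adjusted p under 0.05, and the *Mrap2* probes carry the last 4 digits of their probe ID. *Agrp* and *Pomc* stand furthest to the right in the comparisons of the Arc, *Cartpt* lies to the left in both comparisons of the VMH with DMH and LH, and no point is filled between DMH and LH.

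Taken pair by pair, 4 of the 8 member probes were called between Arc and VMH, where 5.92% of all tested probes were, and all 4 were higher in the Arc, as were 2.4% of all. Between Arc and DMH, 4 were called, all higher in the Arc, against 1.26% and 0.533%. Between Arc and LH, 3 were called, all higher in the Arc, against 9.34% and 3.33%. Between VMH and DMH, 3 were called (2.04% of all), with *Pomc* and *Mc3r* higher in the VMH (1.1%) and *Cartpt* higher in the DMH (0.945%). Between VMH and LH, 3 were called (5.28% of all), again *Pomc* and *Mc3r* higher in the VMH (2.24%) and *Cartpt* higher in the LH (3.04%). Between DMH and LH, 0 of 8 were called by limma against 0.924%. At an unadjusted p under 0.05, 3 of 8 passed between DMH and LH, where 15.5% of all probes did, and in the other 5 comparisons, in the order above, 5 (20.1%), 4 (10.8%), 6 (26.4%), 5 (12.3%), and 3 (21%). The Tukey-Kramer test is named in the methods for several groups but not for the arrays, and its p was also adjusted over all probes. This test called *Pomc* and *Agrp* between Arc and LH (2 of 8, against 0.104% of all). It called 0 of 8 in the other 5 comparisons, where it called 0.00695% of all probes (Arc and VMH), 0.0139% (Arc and DMH), 0.0104% (VMH and DMH), 0.0104% (VMH and LH), and 0% (DMH and LH).

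Of the 48 differences, 17 were called. Of these 17, 8 stayed called without any single array, namely *Pomc* and *Agrp* in the Arc against each other nucleus and *Cartpt* in the VMH against Arc and LH. The arrays of the 2 nuclei did not overlap in any of the 17, which fixes the direction within each replicate number. With 2 arrays a nucleus, a lack of overlap is common. It was seen for 6 of the 8 member probes between Arc and VMH (55% of all probes), 7 between Arc and DMH (45.1%), 7 between Arc and LH (55.3%), 7 between VMH and DMH (46.2%), 5 between VMH and LH (49%), and 6 between DMH and LH (45.6%). Leaving out 1 array moved the count of calls between Arc and DMH from 4 to 2 (without Arc1, Arc2, DMH1, or DMH2), that between VMH and DMH from 3 to 0 (without VMH1, VMH2, or DMH1) or 1 (without DMH2), and that between VMH and LH from 3 to 1 (without VMH1) or 2 (without VMH2).

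The remaining genes of the system were read through lists, which were also chosen with earlier results of these data known. The other melanocortin receptors *Mc1r*, *Mc2r*, and *Mc5r* and the other accessory protein *Mrap* were below background throughout, and no probe was matched to *Asip*, the agouti gene of the skin. All 8 genes of peptide processing were measured on all 8 arrays. None was called higher in the Arc than in the VMH, DMH, or LH, where 2.4%, 0.533%, and 3.33% of all probes were, and 1, 0, and 2 were called lower, against 3.52%, 0.727%, and 6.02%. *Pcsk2*, a convertase that cuts the *Pomc* product into its small peptides, was 8621 and 11772 in the Arc, 24368 and 22578 in the VMH, 13782 and 17220 in the DMH, and 21563 and 24180 in the LH. It was called lower in the Arc than in the VMH, at -1.22 on the log2 scale (limma adjusted p = 0.0315), and the LH, at -1.18 (0.0269). *Pcsk1*, the convertase of the first cuts, was lower in the Arc than in the LH (-0.81, 0.0475), and was 0.75 higher in the Arc than in the VMH without a call (0.0769). The summed level of 6 neuron markers was likewise lowest in the Arc, at 141597 to 145990 against 154452 to 225836 elsewhere, and its part in the lower *Pcsk2* was not tested. *Stmn2*, one of the 6, has no value on LH1 and is left out of that sum there. *Snap25*, the brightest, weighs most in the sum, and its mean was 66051.9 in the Arc and 62546.5 in the DMH. Of the 6 markers, 1 was called lower in the Arc than in the VMH (3.52% of all probes), 0 than in the DMH (0.727%), and 2 than in the LH (6.02%).

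Among 4 measured genes of the agouti pathway, *Atrnl1* was lower in the Arc than in the VMH (-2.11, limma adjusted p = 0.0352) and *Mgrn1*, a ubiquitin ligase, lower than in the LH (-1.11, 0.0161). Among 6 measured genes of receptor signaling, *Arrb1*, a beta-arrestin that turns off receptors, was lower in the Arc than in the VMH, with -1.32 (0.0107), and the LH, with a difference of -1.53 (0.00508). Its signal was 10951 and 12141 in the Arc and at least 23403 on every other array. The G protein subunits *Gnas*, *Gnaq*, and *Gna11* were not called in any comparison of the Arc, with differences between -0.29 and 0.14.

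Of 10 transcription factors of *Pomc* and *Agrp* neurons, 5 were called higher in the Arc than in the VMH (2.4% of all probes), 2 than in the DMH (0.533%), and 6 than in the LH (3.33%), and none was called lower in the Arc. Among the differences not called, *Nkx2-1* differed by -0.57 from the VMH, and *Nr4a1* by -0.60 and *Bsx* by -0.96 from the DMH. The median difference over the list was 1.84, 1.16, and 1.61 on the log2 scale in turn, and over all tested probes 0.01, 0.02, and 0.05. *Tbx3*, which maintains the identity of these neurons, was 16147 and 16919 in the Arc and 477 to 841 on the other arrays, with log2 differences from 4.43 to 4.84. *Otp*, needed for *Agrp* neurons, was 1896 and 1845 in the Arc, 76.9 and 122 in the VMH, 490 and 419 in the DMH, and 591 and 513 in the LH, and was called in all 3 comparisons (limma adjusted p from 0.000608 to 0.0173), with 1 of the 2 VMH signals below background. *Nhlh2* was 1603 and 1450 in the Arc and not well above background in the VMH, which gives at least a 14.7-fold higher level in the Arc than in the VMH (0.00247). *Bsx* is left out of these counts for the VMH and LH, since it was below background in the Arc and in those nuclei, and without it the list medians were 1.42 against the VMH and 1.46 against the LH.

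**Figure D4:**
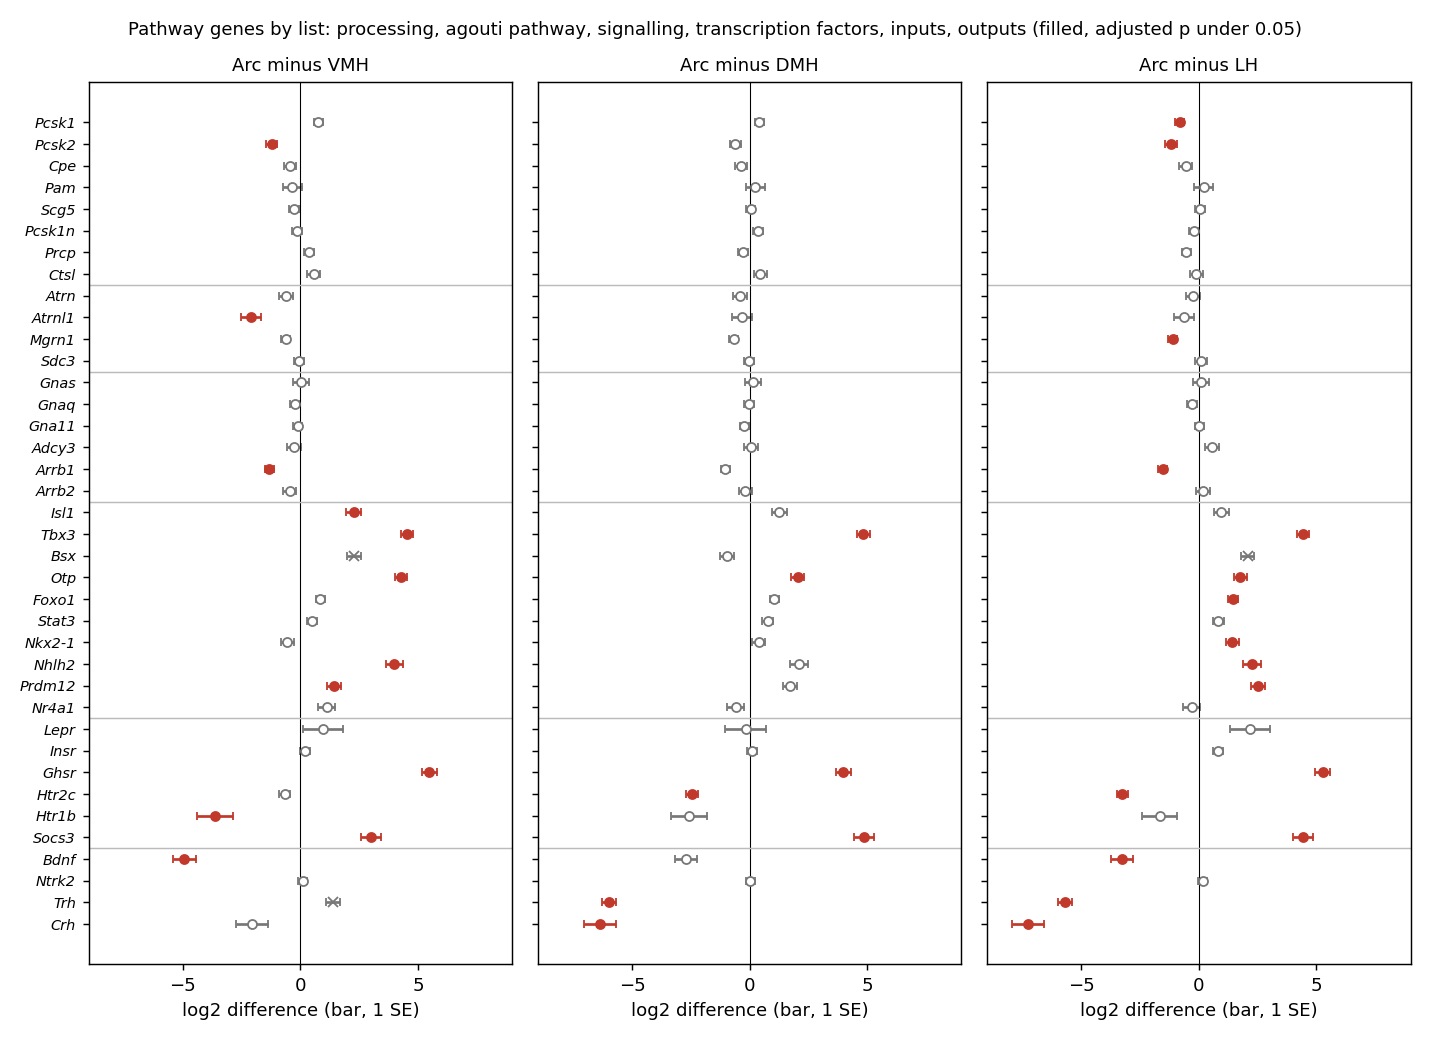
Log2 difference of the Arc from each other nucleus for the tested genes of the pathway lists (bars, 1 standard error from limma), in the order processing, agouti pathway, signaling, transcription factors, inputs, and outputs. Filled red points are called, and crosses are genes below background in both nuclei. The called processing, agouti pathway, and signaling genes lie left of 0, the called transcription factors right of it, and the output genes *Trh* and *Crh* far left against DMH and LH.

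Among the 6 hormone and transmitter inputs, receptors and signal genes by which hunger and satiety signals reach these neurons, *Ghsr* and *Socs3* were called higher in the Arc in all 3 comparisons. *Ghsr*, the ghrelin receptor, was 1122 and 1283 in the Arc and below background on the other 6 arrays. Its level in the Arc was at least 11.5-fold that of the VMH (limma adjusted p = 0.000556), 12.8-fold that of the DMH (0.00278), and 11.7-fold that of the LH (0.000614). *Ghsr* passed the filter on dim probes through the Arc alone, so its p-values rest on signals below background elsewhere. *Socs3*, which leptin signaling induces, was 938 and 1000 in the Arc, at least 10.4-fold above the DMH (0.00505) and at least 9.47-fold above the LH (0.00247), and was called over the VMH too (3.00 on the log2 scale, 0.0104), where 1 of the 2 signals was below background. *Lepr*, the leptin receptor, and *Insr*, the insulin receptor, were not called, and the *Lepr* probe spread from 181 to 1267 between the DMH arrays. *Htr1b* had a VMH level at least 7.78-fold that of the Arc, where both arrays were below background (0.0391). *Htr2c*, named here outside the rule after its values were seen, was 574 and 759 in the Arc, 1007 and 1090 in the VMH, 3441 and 3763 in the DMH, and 7317 and 5378 in the LH, and was called lower in the Arc than in the DMH and LH.

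The outputs were genes of cell types that melanocortin signals are known to reach, though not shown to be reached in these samples. Of the 4 tested, 1 was called lower in the Arc than in the VMH (3.52% of all probes), 2 than in the DMH (0.727%), and 3 than in the LH (6.02%). *Trh*, the precursor of thyrotropin-releasing hormone, was below background in the Arc and VMH. It was 5586 and 9818 in the DMH and 6519 and 5690 in the LH, at least 61.1-fold (limma adjusted p = 0.000374) and at least 50.2-fold (0.000351) the Arc. *Crh*, below background in the Arc, reached at least 20.1-fold of that level in the DMH (0.00936) and at least 37.4-fold in the LH (0.00239). *Bdnf* was 1730 and 1735 in the VMH, at least 15.3-fold above the Arc (0.00285), and the LH at least 4.8-fold (0.00902). Its receptor gene *Ntrk2* was not called in any comparison of the Arc. *Sim1*, which marks the paraventricular nucleus, a main site of *Mc4r* action that was not analysed here, stayed below background on all 8 arrays.

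Likeness of pattern was described by Pearson's r of log2 signal over the 8 arrays between each member and 17160 other probes of 13125 named genes. The arrays share 4 nuclei, and genes high in the same nucleus tend to score high together, so the values carry no test. *Npy5r* (0.981) and *Npy1r* (0.981), which encode receptors of neuropeptide Y, were the most like *Pomc*, followed by *Socs2*, *Cited1*, and *Fam183b*. *Npy1r* had means of 2954 (Arc), 1259 (VMH), 759 (DMH), and 693 (LH), the same order as *Pomc* over a narrower range. *Npy5r* was below background in the DMH and LH, with means of 32.1 and 28.1, so its order there was not measured. *Kiss1* (0.994), *Nr5a2*, *Tnfrsf11b*, *Tbx3*, and *Lhfpl1* were the most like *Agrp*, with *Nr5a2* and *Tnfrsf11b* below background outside the Arc. *Flywch2*, *Pnoc*, *Gpr153*, *Tmem106a*, and *Nudt7* were the most like *Cartpt*, and *Pnoc*, the precursor of nociceptin, had means of 1191 (Arc), 141 (VMH), 566 (DMH), and 785 (LH). *Garem1*, *Fgf10*, *Acvr1c*, *Crym*, and *H2-Q6* were the most like *Mc3r*, and *Acvr1c* had means of 582 in the Arc and 699 in the VMH and was below background in the DMH and LH. The genes most like the brightest *Mrap2* probe were *Sp1*, *Kif21b*, *Ap1s3*, *Glra2*, and *Tanc1*. That probe had r of 0.626 and 0.460 with the other *Mrap2* probes, for which likeness was not read. Those most like *Mc4r* were *Hipk3*, *Zfp667*, *Coq5*, *Aqr*, and *Usp22*, on a probe that was measured on 3 arrays. Between the members, r was 0.931 for *Pomc* and *Agrp*, 0.411 for *Pomc* and *Cartpt*, 0.791 for *Pomc* and *Mc3r*, and -0.121 for *Cartpt* and *Mc3r*.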

How the data were processed

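RNA of 4 microdissected nuclei was amplified with the WTA2 kit, labeled with the Kreatech ULS kit, and hybridized to 8 Agilent arrays of 1 slide, read in 1 scan. The authors deposited, as intensity on a linear scale, the background-subtracted processed signal of every spot from Feature Extraction (11.5.1.1 per the labels, 10.7.3.1 per the file headers). The labels name Cy3 and the methods Cy5, and the red channel is in the files. Spots marked as outliers were left out, spots of a probe averaged, each array divided by its 75th percentile, and log2 taken. limma 3.58.1 (R 4.3.3) fitted 1 mean per nucleus to 28896 probes, those measured above background by both arrays of some nucleus, with 4 residual and 3.02 prior degrees of freedom, and p was adjusted by Benjamini and Hochberg within each comparison. The fit was tested on simulated data. Brightness over background and 2 arrays a nucleus limit the precision, and p-values measure the spread between these arrays, which may be technical.

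Of 28390 probes with a RefSeq accession, 26762 (94.3%) were given a symbol through the annotation GRCm38.p6. All members and probes are named, the brightest probe of a gene being its main one, with the 3 list genes of largest difference per list among those called in a comparison of the Arc, and the 5 genes most like each member. Gene lists and members were chosen with earlier results of these data known. A nucleus below background on both arrays gives a bound, the brighter mean over the higher of the dim signal and the lowest signal well above background on that array. The alternatives were no scaling, quantile normalization, normexp (offset 50), the deposited table of all arrays, and spots marked as outliers kept. Others were the dim-probe filter dropped or set to all 8 arrays, dim signals set to a floor, the replicate block, and trended and robust moderation. The last were each array left out and one-way ANOVA with Tukey-Kramer, which the methods name but not for the arrays.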

Additional observations from a re-analysis of the deposited data

How the results depend on the processing

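No call of a member reversed under any alternative. Of the 17 called differences, 12 stayed called under all alternatives run with limma on all 8 arrays, and the F-test called at least 4 probes under every alternative. Without scaling, the count of calls was 2 between Arc and DMH and 1 between VMH and DMH, and the median of all probes was -0.46 and -0.19 in those comparisons, against 0.02 in each with scaling. Normexp, the filter on all 8 arrays, and trended and robust moderation each gave 5 calls between Arc and LH in place of 3. One-way ANOVA with Tukey-Kramer, adjusted over all probes, kept 2 calls in all, both between Arc and LH, and gave 0 between Arc and VMH, Arc and DMH, VMH and DMH, and VMH and LH. The cause was not tested in these cases. When single arrays were left out, the total of calls ran from 10 to 18, and the counts from 2 to 4 (Arc and DMH), 2 to 4 (Arc and LH), 3 to 4 (Arc and VMH), 0 to 3 (VMH and DMH), and 1 to 3 (VMH and LH), with fewer residual degrees of freedom in each fit.

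Of the differences that had not been called, 10 changed sign under some alternative, and none was called in its new direction. Without scaling, *Mc3r* Arc minus VMH became -0.16. The first *Mrap2* probe became -0.16 (Arc minus DMH), -0.028 (Arc minus LH), and 0.14 (DMH minus LH), and Arc minus DMH became -0.34 on the second probe and -0.17 on the third. Normexp gave -0.020 for Arc minus LH on the first *Mrap2* probe. Over the leave-outs of single arrays, the difference ran from -0.028 (without Arc1) to 0.24 for *Mc3r* Arc minus VMH, from -0.11 (without VMH1) to 1.39 for *Mc4r* Arc minus VMH, and from -0.32 (without LH2) to 1.61 for *Mc4r* VMH minus LH, which was -0.10 without VMH2. It ran from -0.13 (without LH1) to 0.42 for *Agrp* DMH minus LH and from -0.53 to 0.020 (without LH2) for *Agrp* VMH minus LH. For the first *Mrap2* probe it ran from -0.10 (without LH1) to 0.36 for Arc minus LH and from -0.41 to 0.041 (without LH2) for DMH minus LH.

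The ratio of the Arc to the next nucleus for *Pomc* was 10.6, and 8.63 without scaling and 9.53 after normexp. For *Agrp* it was 94.5, and 67.6 and 66.1 under the same settings. With the replicate number as a block, 15 of the 17 calls remained in count, and *Cartpt* between Arc and DMH (adjusted p = 0.0555) and the third *Mrap2* probe between Arc and VMH (0.071) were lost. Arrays of the same number deviated together only weakly, with correlations from -0.026 to 0.258 over the 6 pairs of nuclei, so the numbers were not taken to pair the arrays.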

Other observations

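Oxytocin and vasopressin transcripts, which belong to neurons outside the 4 nuclei, were uneven between arrays of the Arc, VMH, and LH. *Oxt* was 6559 on Arc1, 848 on Arc2, 1242 on VMH2, and 8332 on LH2, and below background on VMH1, LH1, and both DMH arrays. *Avp* was 2432 on LH2 and 105 to 351 on the other 7 arrays. The tanycyte genes *Rax* and *Vim* were highest in the Arc, at 1738 and 1360 for *Rax*, which was below background on all other arrays but 1 of the DMH, while the ependymal genes *Foxj1* and *Tmem212* were not well above background on any array.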
